A study of Mus musculus with 69 samples.

Results

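The low dose of NRCWE-030, 1 day after exposure, was examined in whole lung by setting the 5 arrays of mice given 18 µg against the 5 arrays of vehicle controls of the same day, which are 10 of the 69 arrays of the series. The members were chosen by the dose, material and day in the sample titles. NRCWE-030 and NRCWE-025 are titanium dioxide nanomaterials (nano-TiO2). All mice were female C57BL/6, 5 to 7 weeks old when obtained and kept for 1 to 3 weeks before the exposure. Each received a single intratracheal instillation, of nano-TiO2 dispersed in water with 2% serum or of that vehicle alone, so the controls carried the instillation and the serum too. Each array held RNA from the lung of 1 mouse, labelled with Cy5, against Universal Mouse Reference RNA, a common reference labelled with Cy3, without a dye swap. Set beside the low dose were NRCWE-030 at 54 and 162 µg on day 1, NRCWE-025 at 18 µg on day 1, and NRCWE-030 at 18 µg and its own controls on day 28, with 5 arrays each. All groups of day 1 shared the same 5 control arrays. A level here is log2 of lung over reference, and a difference is a difference between group means of these levels. Whole lung is a mixture, in which fewer cells of a type and less RNA per cell cannot be told apart.

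Immediate early genes are transcribed within minutes of a stimulus by factors already present in the cell. Many encode transcription factors, such as those of the Egr, Fos, Jun and Nr4a families, and others encode brakes on the signal, such as the phosphatase Dusp1 and the mRNA-destabilising protein Zfp36. In lung, instilled particles are known for acute phase genes such as those of serum amyloid A, and for chemokines that draw neutrophils. The circadian clock is a feedback loop in which Arntl and Clock drive the Per, Cry and Nr1d genes and the output factor Dbp, and it runs in lung as in most tissues.

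The labelled tissue was checked by the surfactant protein genes of alveolar type 2 cells, and Sftpa1, Sftpb, Sftpc and Sftpd all had levels of at least 3.28 on each of the 10 arrays. Between 49.8% and 65.4% of the spots were well above background in Cy5, and 0 were saturated. Replicate 3 of the 18 µg group stood apart, with a median correlation of 0.890 with the other arrays of the comparison, where the others had 0.935 to 0.969. Replicate 3 of the controls stood apart in its clock genes. The 10 arrays came from 8 slides scanned on 7 days, and 2 of the slides held arrays of both groups. That each array was 1 mouse is from the labels, and the number of arrays limits the precision.

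At 18 µg few genes differed from control. Of 18693 genes tested, 1 was called by limma at a Benjamini-Hochberg adjusted p under 0.05 (0.00535%), and it was lower. At an unadjusted p under 0.05, 641 genes were higher (3.43%) and 724 lower (3.87%), where 935 in all are expected by chance. The treated arrays lay entirely above the controls for 102 genes (0.546%) and entirely below them for 84 (0.449%).

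The called gene was Dnpep, the aspartyl aminopeptidase, which removes acidic residues from the start of peptides. Its levels were -0.87, -0.84, -0.91, -0.73 and -0.91 in the treated lungs and -0.49, -0.31, -0.46, -0.37 and -0.27 in the controls. Each treated lung lay below each control. The difference was -0.47 ± 0.07 (SE), with an adjusted p of 0.0449 in limma, and it was -0.50 and -0.64 within the slides that held both groups. The probes of Dnpep differed by -0.61 and -0.34, both well above background on all 10 arrays. With only the brightest probe of each gene, Dnpep was not called. The difference was negative in all 23 alternatives and called in 10 of them, with adjusted p from 0.0162 to 0.419. Of these 10, Aquantile normalisation leaves log ratios as they are and so repeats the main result. Dnpep was not called with slide held fixed (-0.49, adjusted p = 0.259 in limma) or with scan day held fixed (-0.49, adjusted p = 0.2). Dnpep differed from control by -0.25 at 54 µg, by -0.04 at 162 µg and by -0.38 with 18 µg of NRCWE-025. Between 18 and 162 µg, the difference of -0.43 had an adjusted p of 0.00496 in limma.

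The immediate early genes had more members on the higher side than any other list. Of the 22 listed and tested, 20 had a difference above 0, where 50% of all genes did, and 13 were higher at an unadjusted limma p under 0.05, against the 3.43% of all genes given above. For 5 of them, Nr4a1, Egr1, Dusp1, Egr2 and Zfp36, the treated arrays lay entirely above the controls, as they did for 0.546% of all genes. None was called after adjustment over all genes. The median difference of the 22 was 0.39, and that of all genes was -8.1e-05. The median over the 22 genes in each array, taken against the control mean, was 0.39, 0.21, 0.46, 0.34 and 0.38 in the treated lungs and 0.03, -0.17, 0.15, 0.06 and -0.06 in the controls, with no overlap. Without both arrays called replicate 3, 12 of the 22 were higher and the median was 0.40.

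Nr4a1, an orphan nuclear receptor, had levels of 1.54, 0.80, -0.24, 0.75 and 1.67 in the treated lungs and of -0.86, -0.83, -0.25, -0.36 and -0.51 in the controls. Treated replicate 3 lay only just above the highest control. The difference was 1.47 ± 0.27 (SE), adjusted p = 0.161 in limma, and without that treated array it was 1.75, adjusted p = 0.00294. Egr1, a zinc finger transcription factor, had levels of -0.18, -1.07, -1.52, -1.24 and -0.99 in the treated lungs and of -2.52, -2.57, -2.08, -1.88 and -2.66 in the controls. Each treated lung lay above each control, with a difference of 1.34 ± 0.25 (SE), adjusted p = 0.161 in limma.

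Dusp1, which dephosphorylates MAP kinases, had levels of 2.56, 2.62, 2.83, 2.71 and 3.21 in the treated lungs and of 1.54, 1.30, 2.42, 1.66 and 0.68 in the controls. The groups did not overlap, and the highest control was replicate 3. The difference was 1.26 ± 0.25 (SE), adjusted p = 0.184 in limma, and without that control it was 1.49, adjusted p = 0.0114. Ccn1, a matrix-associated growth regulator outside the list that is also induced rapidly by growth factors, was at -0.51, -0.61, -0.82, -0.49 and -0.39 in the treated lungs and at -1.82, -1.96, -1.48, -1.29 and -1.42 in the controls. The groups did not overlap, with a difference of 1.03 ± 0.22 (SE), adjusted p = 0.184 in limma. For Nr4a1, Egr1, Dusp1 and Ccn1 the two-sided exact permutation test gave p = 0.00794, the smallest that 5 arrays against 5 allow. Any gene whose groups do not overlap gets this value, so it adds nothing to the lack of overlap.

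Within the slides that held both groups, the differences were 1.89 and 0.27 for Nr4a1, 1.70 and 1.14 for Egr1, 0.90 and 2.15 for Dusp1, and 0.78 and 0.59 for Ccn1. All were above 0, and that of Nr4a1 was small on the slide of treated replicate 3. Egr2, of the family of Egr1, differed by 0.58, and Zfp36 by 0.34. That of Zfp36 is the middle of 2 probes, at 0.70 for the probe well above background on all 10 arrays and at -0.03 for a probe above it on 0. Klf2, counted above 0, is the middle of 2 opposed probes, at 1.18 and -0.37, both well above background on all 10 arrays. Its difference was above 0 in 22 of the 23 alternatives. The Krüppel-like factor Klf4 differed by 0.94, Fos by 0.69, Ier2 by 0.64, Atf3 by 0.53 and Jun by 0.46, and in these 5 the groups overlapped. The members below 0 were Ier3, at -0.27, and Egr3, at -0.01. Egr3 and Nr4a3 were not well above background on any of the 10 arrays.

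**Figure D1:**
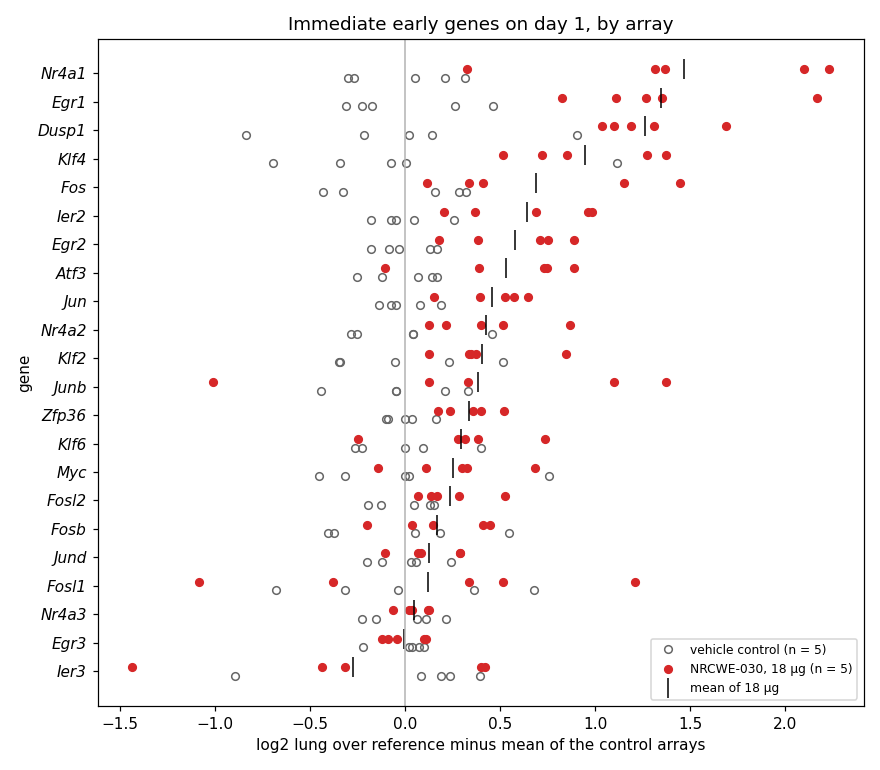
Log2 lung over reference of each of the 22 immediate early genes on each array, less the mean of the 5 controls, with open circles for vehicle controls, filled circles for 18 µg of NRCWE-030 and a bar for the treated mean. The treated mean lies above 0 for 20 genes, and for Nr4a1, Egr1, Dusp1, Egr2 and Zfp36 all treated arrays lie above all controls.

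The promoters of Nr4a1, Dusp1 and Ccn1 are shown because these genes had large differences with no overlap between groups and an entry in the promoter table, which Egr1 did not. Each runs from 250 bases before to 50 after the annotated start, from RefSeq for GRCm38.p6, 5′ to 3′ along the gene. Capitals mark TGACG, the core of the cyclic AMP response element, on either strand (CGTCA on the reverse), and TATAAA.
Nr4a1, chr15:101266596-101266895, plus strand: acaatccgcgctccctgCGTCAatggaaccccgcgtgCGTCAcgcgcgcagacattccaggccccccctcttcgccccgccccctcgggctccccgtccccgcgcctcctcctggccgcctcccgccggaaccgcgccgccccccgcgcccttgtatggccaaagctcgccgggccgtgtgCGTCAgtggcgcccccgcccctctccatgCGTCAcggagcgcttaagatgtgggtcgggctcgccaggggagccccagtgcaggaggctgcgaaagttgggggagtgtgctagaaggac
Dusp1, chr17:26508423-26508722, minus strand: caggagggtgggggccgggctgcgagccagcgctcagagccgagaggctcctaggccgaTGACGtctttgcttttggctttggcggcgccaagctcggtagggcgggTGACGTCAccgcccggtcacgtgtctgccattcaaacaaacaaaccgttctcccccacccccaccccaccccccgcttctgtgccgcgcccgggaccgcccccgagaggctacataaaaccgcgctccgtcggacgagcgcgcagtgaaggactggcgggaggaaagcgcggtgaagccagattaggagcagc
Ccn1, chr3:145649936-145650235, minus strand: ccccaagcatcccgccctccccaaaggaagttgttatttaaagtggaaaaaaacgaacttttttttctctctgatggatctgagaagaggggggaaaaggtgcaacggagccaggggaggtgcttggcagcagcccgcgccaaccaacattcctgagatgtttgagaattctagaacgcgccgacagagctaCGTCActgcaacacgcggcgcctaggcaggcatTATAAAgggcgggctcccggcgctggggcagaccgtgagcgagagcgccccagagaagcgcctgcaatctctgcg
Nr4a1 held TGACG 4 times, all on the reverse strand, and Ccn1 held it 1 time. Dusp1 held it 3 times, 2 of them overlapping within the full element TGACGTCA, which reads the same on both strands. Of the 17 immediate early genes with a promoter in the table, 11 held TGACG (64.7%), and of 14864 tested genes with one, 28.8% did. TGACGTCA was found in 1 of the 17, that of Dusp1, and in 2.83% of tested genes. TATAAA was found in 3 of the 17 (17.6%) and in 13.6% of tested genes. The CArG box, the sequence bound by serum response factor, was found in Egr2 and Zfp36, which are 11.8% of the 17, and in 1.66% of tested genes. These matches describe letters within 300 bases.

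At the higher doses the median difference of the immediate early genes was nearer to 0. It was 0.15 at 54 µg, 0.14 at 162 µg and 0.23 with 18 µg of NRCWE-025. Nr4a1 differed from control by 0.20 at 54 µg and by 0.41 at 162 µg, Egr1 by 0.01 and 0.23, and Dusp1 by 0.25 and 0.37. Klf4, at 1.08 and 0.61, and Egr2, at 0.47 and 0.44, lay closer to their differences at 18 µg. Set directly against 162 µg, 3 of the 22 were called higher at 18 µg, where 0.177% of all genes were. They were Egr1, by 1.11 ± 0.25 (SE), adjusted p = 0.0379 in limma, Jun, by 0.50, adjusted p = 0.0294, and Jund, by 0.40, adjusted p = 0.0413. Between 18 µg and control, Jun differed by 0.46 and Jund by only 0.12. Each is less than the difference from 162 µg, so both genes lay below control at 162 µg. Nr4a1, Ccn1 and Dusp1 had adjusted p of 0.0689, 0.0666 and 0.0999 in that comparison. Against 54 µg, 0 of the 22 were called, and 0% of all genes were called higher at 18 µg. On day 28, against its own controls, 18 µg gave differences of 0.92 for Nr4a1, 1.14 for Egr1 and 0.29 for Dusp1, none of them called, and without day 28 replicate 5 of the 18 µg group, described further on, 1.19, 1.37 and 0.47, again not called.

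Circadian clock genes were the list with the next largest number higher at an unadjusted limma p under 0.05, and the calls of Dbp, Arntl and Nr1d2 turned on 1 control. Of 20 tested, 7 were higher at that threshold and 1 was lower, where 3.43% and 3.87% of all genes were, and 0 were called. Dbp, an output factor of the clock, was at 1.86, 2.11, 1.63, 1.93 and 1.5 in the treated lungs and at -0.55, -0.69, 2.26, -0.60 and -0.25 in the controls. Control replicate 3 lay above all treated lungs, and the other 4 controls lay below them. The difference was 1.77 ± 0.39 (SE), adjusted p = 0.206 in limma, and without control replicate 3 it was 2.33, adjusted p = 8.8e-07.

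Arntl, the activator of the loop, had the opposite pattern. It was at -0.85, -0.69, -0.81, -0.93 and -0.32 in the treated lungs and at 0.36, 0.47, -1.70, 0.82 and 0.56 in the controls. Control replicate 3 was the lowest of the 10 arrays, and the other controls lay above all treated lungs. The difference was -0.82 ± 0.32 (SE), adjusted p = 0.62 in limma, and without that control it was -1.27, adjusted p = 0.000516. Nr1d2, a repressor of Arntl, was at 1.42, 1.83, 1.15, 1.47 and 1.66 in the treated lungs and at 0.31, 0.14, 2.01, 0.40 and 0.27 in the controls. Here too control replicate 3 was the highest, and the difference was 0.88, adjusted p = 0.423, and 1.23 without it, adjusted p = 0.000505.

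Of the repressors of the loop, Per1 differed by 1.03, Per2 by 0.50 and Per3 by 0.32, and the 2 probes of Per2 by 0.91 and 0.09. Cry2 differed by -0.07, and Cry1, not well above background on any of the 10 arrays, by 0.06. Bhlhe40, another repressor, was the member whose groups did not overlap, at -0.14, -0.58, 0.16, -0.09 and 0.12 in the treated lungs against -1.02 to -0.59 in the controls. Its difference was 0.74 ± 0.15 (SE), adjusted p = 0.184 in limma. Within the slides that held both groups, neither with control replicate 3, Dbp differed by 2.46 and 1.88 and Arntl by -1.67 and -1.37. With slide held fixed in the fit, Dbp (2.16, adjusted p = 0.00333) and Arntl (-1.37, adjusted p = 0.00896) were called in limma. In that fit control replicate 3 was the only array of its slide and so had no weight in these differences.

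Dbp differed from control by 1.62 at 54 µg, by 1.79 at 162 µg and by 0.20 with 18 µg of NRCWE-025. Arntl differed by -1.24, -1.51 and 0.01 in these groups, which share the controls. The hour of tissue collection is not given in the sources used here, and its part in these differences was not tested.

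**Figure D2:**
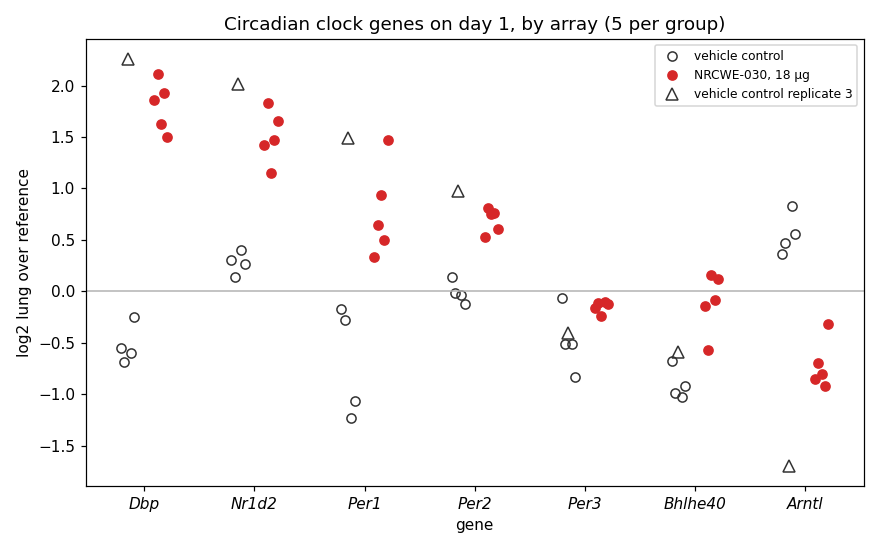
Log2 lung over reference of 7 circadian clock genes on each of the 10 arrays, with filled circles for 18 µg of NRCWE-030, a triangle for control replicate 3 and open circles for the other 4 controls. For Dbp, Nr1d2, Per1 and Per2 the triangle is the highest point, at 2.26 for Dbp, and for Arntl it is the lowest, at -1.70.

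Acute phase and chemokine genes were not called at 18 µg, and 0 of 19 and 0 of 28 passed an unadjusted limma p under 0.05. Their median differences were 0.10 and 0.08. Saa3, a serum amyloid A gene expressed in lung, was at -1.07, -4.17, 0.38, -2.56 and -2.06 in the treated lungs and at -2.68, -1.91, -2.55, -3.25 and -2.69 in the controls. Treated replicates 1 and 3 lay above all controls and replicate 2 below them. The difference was 0.72 ± 0.82 (SE), adjusted p = 0.906 in limma. Lcn2, an iron-sequestering protein of neutrophils and epithelium, was at 3.06, 1.38, 2.36, 1.79 and 1.20 in the treated lungs and at 1.57, 2.17, 2.07, 1.79 and 1.25 in the controls. Replicates 1 and 3 were again above all controls, and the difference was 0.19. Cxcl5, a neutrophil chemokine, differed by 0.97, from 0.30 to 1.83 over the alternatives, and was well above background on only 3 of the 5 treated arrays and 2 of the 5 controls. Ccl2, which draws monocytes, differed by 0.19.

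Within the acute phase list, treated replicate 2 was the highest array for Fgb, Fgg and Hpx. Fgb, a fibrinogen chain, was at 4.55 on that array and at no more than 1.14 on the other 9, and it was well above background on 3 of the 10. Fgg, another fibrinogen chain, was at 4.89 there and at no more than 1.72 elsewhere. Hpx, the heme carrier hemopexin, was at 2.42 there, and the next was treated replicate 3 at 1.42.

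Against 54 µg, 2 genes were called, both lower at 18 µg (0.0107%). Saa2 differed by -2.61 ± 0.39 (SE) and Lcn2 by -2.25 ± 0.34 (SE), each with an adjusted p of 0.0255 in limma. Saa1 and Saa3 differed by -2.94 and -4.56, each with an adjusted p of 0.0777. At an unadjusted p under 0.05, 607 genes were higher (3.25%) and 555 lower (2.97%) at 18 µg. Against 162 µg, 192 genes were called (1.03%), of which 33 were higher and 159 lower (0.851%) at 18 µg, and 708 (3.79%) and 1261 (6.75%) passed an unadjusted p under 0.05. The lower ones included 7 of the 19 acute phase genes, such as Saa3 (-6.59 ± 0.82 SE, adjusted p = 0.000369) and Saa1 (-4.57), and 4 of the 28 chemokines, namely Ccl2, Ccl9, Ccl12 and Cxcl9. Timp1, an inhibitor of matrix metalloproteinases, differed by -2.91 ± 0.46 (SE), adjusted p = 0.00366. The smallest p-values were those of Cstb, the protease inhibitor cystatin B, with a difference of -0.87 (adjusted p = 7.5e-05), and Wfdc17, with -1.39. Higher at 18 than at 162 µg were Pcolce2, an enhancer of procollagen processing, by 0.94, Ehd4, an endocytic ATPase, by 0.66, Prkce, a protein kinase C, by 0.52, and Cirbp, a cold-inducible RNA-binding protein, by 0.77. Between 18 µg and control, Pcolce2 differed by 0.08, Ehd4 by 0.35 and Cirbp by 0.52, and the probes of Prkce by -0.125, -0.05 and 0.08.

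**Figure D3:**
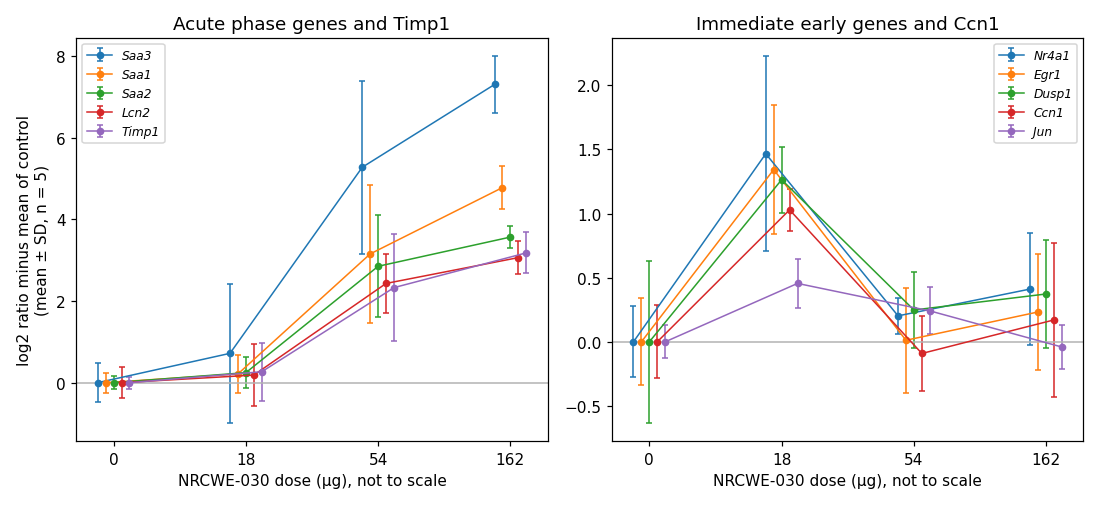
Difference from the day 1 control mean on the log2 scale (mean ± SD of 5 arrays) against the dose of NRCWE-030, evenly spaced, for acute phase genes and Timp1 (left) and for immediate early genes and Ccn1 (right). Saa3 lies at 0.72, 5.28 and 7.31 at 18, 54 and 162 µg, and Egr1 at 1.34, 0.01 and 0.23.

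Other genes whose groups did not overlap are given by the rule for named genes, and none of them was called. On the higher side, Hnrnpdl, an RNA-binding protein, differed by 0.81, Cebpb, a transcription factor of the acute phase response, by 0.63, and Plek, pleckstrin of blood cells, by 0.58. The probes of Hnrnpdl differed by 0.81, 0.31 and 0.27. Hmgb1, a chromatin protein, and Sf3b6, of the splicing machinery, each differed by 0.43, and Csrnp1 by 0.38. The probes of Hmgb1 differed by 0.40, 0.19 and 0.41, and those of Csrnp1 by 0.54, 0.09 and 1.19. The Csrnp1 probe at 0.09 was well above background on 4 of the 10 arrays. On the lower side, Dcn, decorin, which binds collagen fibrils, was at -0.92, 0.18, -0.74, -0.16 and -0.79 in the treated lungs and at 0.51, 0.72, 0.84, 1.1 and 0.40 in the controls. Treated replicate 2 lay closest to the controls, and the difference was -1.20 ± 0.26 (SE), adjusted p = 0.19 in limma. Ssna1 differed by -0.63, Commd9 by -0.60, Ppp1r16a by -0.56, Gpx4, which reduces lipid peroxides, by -0.55, and Cyc1, cytochrome c1 of the respiratory chain, by -0.53. Emb, Dym, Akr1b10, Klhl25 and Ticam1, the adaptor of Toll-like receptor 3, differed by -0.45, -0.42, -0.41, -0.33 and -0.27.

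No gene of the remaining pathway lists was called at 18 µg. Glucocorticoid-responsive genes had a median difference of 0.31, with 4 of 14 higher at an unadjusted p under 0.05, against 3.43% of all genes, which were Dusp1, Per1, Sgk1 (0.51) and Errfi1 (0.86). Dusp1 and Per1 also belong to the lists above. Interferon-stimulated genes had a median of 0.02, against 0.76 at 162 µg, and Bst2, which tethers enveloped viruses, differed by 0.62. Among p53 targets 3 of 15 were higher at that threshold, against the same 3.43%, Btg2 and Plk2 by 0.50 each and Mdm2 by 0.15. Of the 15, 1 was lower, against 3.87% of all genes, and the median was 0.02. The probes of Btg2 differed by 0.37, 0.43 and 0.46, each less than their median taken array by array. Mitosis and cholesterol synthesis genes had 0 members past that threshold. Collagen and matrix genes had 3 of 21 lower, against 3.87% of all genes, which were Dcn, Eln (elastin, -0.46) and Col14a1 (-0.26), and a median of -0.11. Complement genes had 0 of 16 above 0 and a median of -0.18, and 3 of them lay above 0 without treated replicate 3. C1qa, of the first component of complement, differed by -0.71, adjusted p = 0.62 in limma. The study's Bicluster-3, its gene set for chemokine activity, had a median of 0.05 at 18 µg, 0.41 at 54 µg and 0.95 at 162 µg.

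**Figure D4:**
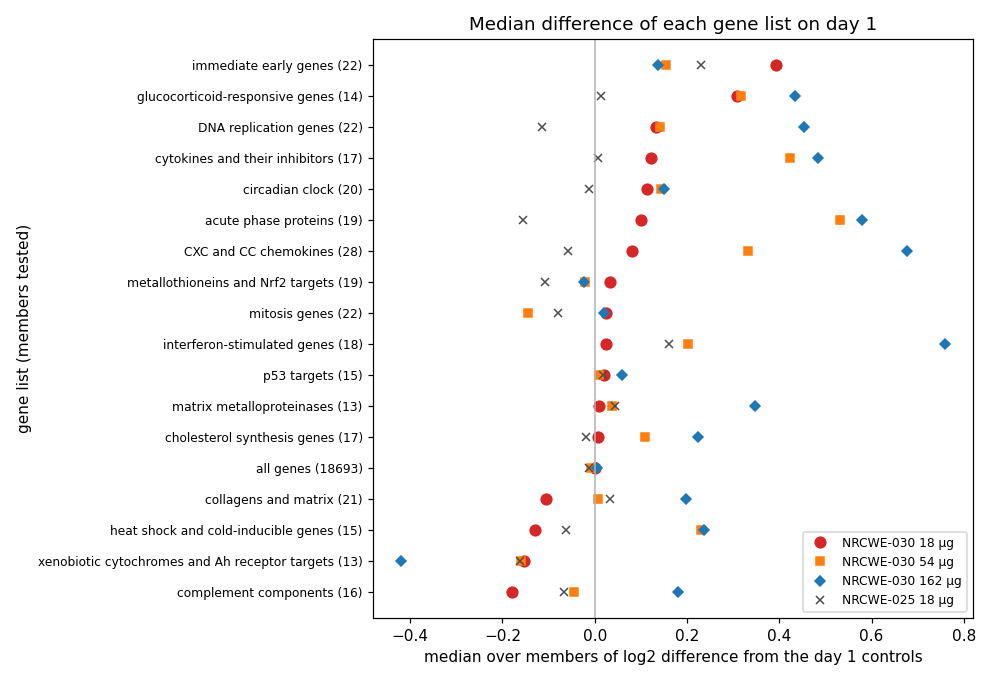
Median over the members of each gene list of the log2 difference from the day 1 controls for NRCWE-030 at 18, 54 and 162 µg and NRCWE-025 at 18 µg, with the members tested in brackets. At 18 µg of NRCWE-030 the immediate early genes lie farthest to the right, at 0.39, and acute phase genes and chemokines lie at 0.10 and 0.08.

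Markers of heart muscle and fat, which a lung sample may carry, varied among arrays of both groups. The median of the 13 heart markers against the control mean was 1.86 on treated replicate 3 and 2.29 on control replicate 2, and between -1.12 and 0.25 on the other 8 arrays. Over the groups 0 of 13 had a difference above 0, with a median of -0.29, and without control replicate 2 there were 11 and the median was 0.31. Fat markers had a median of -0.60, and of -0.09 without that control. Cfd, the complement factor adipsin made by fat, was at 0.25, 2.06, 6.67, 1.00 and 1.13 in the treated lungs and at 6.21, 8.55, 4.47, 4.40 and 3.80 in the controls. Treated replicate 3 and control replicate 2 were again the highest of their groups, and the difference was -3.26 ± 1.52 (SE), adjusted p = 0.669. Bicluster-9, which holds heart and fat genes, had 0 of 17 above 0 and a median of -0.37. Whether such tissue bears on the other results was not tested.

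Of the 8 type 2 cell markers, 1 lay above 0, and the median of -0.24 was -0.09 without treated replicate 3. Abca3, the lipid transporter of lamellar bodies, was at 1.24, 1.25, 0.82, 1.42 and 0.75 in the treated lungs against 1.45 to 1.60 in the controls. The groups did not overlap, and the difference was -0.43 ± 0.11 (SE), adjusted p = 0.328 in limma. Its 3 probes differed by -0.12, -0.33 and -0.24, the last being the brightest, so that each differed by less than their median taken array by array. Macrophage markers had 8 of 9 above 0 and a median of 0.20, with Marco, a receptor for particles, at 0.65. Neutrophil markers had 6 of 11 above 0 and a median of 0.01.

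**Figure D5:**
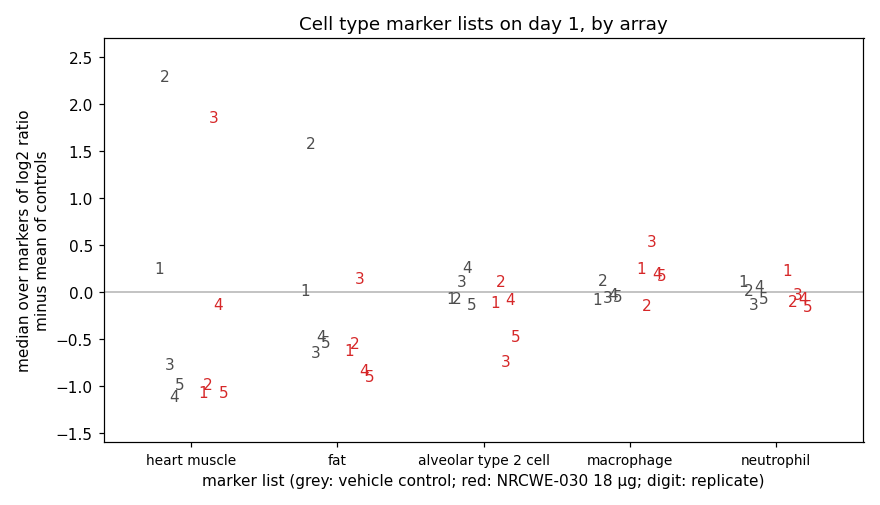
Median over the markers of each cell type of log2 lung over reference less the control mean, for each array, with the digit giving the replicate, grey for vehicle controls and red for 18 µg of NRCWE-030. Treated replicate 3 and control replicate 2 lie highest for heart muscle, at 1.86 and 2.29, and treated replicate 3 lies lowest for type 2 cells, at -0.74.

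Against the same dose of NRCWE-025, 0 genes were called (0%), with a smallest adjusted p of 0.0721 in limma. At an unadjusted p under 0.05, 715 genes were higher (3.82%) and 767 lower (4.1%) with NRCWE-030. NRCWE-025 at 18 µg had 0 called genes against control, with 862 unadjusted. Dusp1 differed from control by 1.26 with NRCWE-030 and by 1.1 with NRCWE-025, and Klf4 by 0.94 and 1.14. Between the materials, Dusp1 differed by 0.16 (adjusted p = 0.925), Dbp by 1.57 (adjusted p = 0.24) and Bhlhe40 by 0.86 (adjusted p = 0.0879).

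The effect of 18 µg on day 1 was also set against that on day 28. For the difference between the days 0 genes were called (0%), with a smallest adjusted p of 0.293 in limma. At an unadjusted p under 0.05 the difference was above 0 for 322 genes (1.72%) and below 0 for 428 (2.29%), where 935 in all are expected by chance. One day 28 array stood apart, replicate 5 of the 18 µg group, with 43.6% of spots well above background in Cy3 against 52.7% to 65.7% on the other 9. Its deposited log2 ratios had a correlation of 0.9218 with those made here from its scanner file without background correction. On every other array used that correlation was at least 0.9945, and the reason was not tested. Without this array the difference between days still had 0 called genes. On day 28 itself 4 genes were called (0.0214%), Cirbp (0.98), Firre (0.92) and Snhg20 (0.99) higher and Adamts9, a matrix protease, lower (-0.69). Without that array 14 were called (0.0749%), these 4 among them. On day 1 their differences were 0.52, 0.39, 0.79 and 0.15.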

How the data were processed

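Lung RNA (Cy5) and Universal Mouse Reference RNA (Cy3) were hybridised to Agilent arrays, and the authors deposited scanner output of Agilent Feature Extraction (spot and background intensity, a log10 ratio and quality flags) and a table of log2 ratios, which they LOWESS-normalised. Of the 69 arrays 45 were used here and 24 were not used. Median spot intensities were background-corrected (normexp, offset 50, with backgrounds marked as outliers replaced by the median of the others) and loess-normalised within arrays with limma 3.58.1 in R 4.3.3. Spots of a probe and probes of a symbol were summarised by the median, giving 18749 symbols, of which 56 lacked a value on at least 1 array and 18693 were tested. Groups came from the sample titles. The day 1 controls and the 3 doses of NRCWE-030 were fitted together with lmFit and eBayes (20 arrays), the comparison with NRCWE-025 used all day 1 groups, and that with day 28 an interaction term over the controls and 18 µg of both days. The p-values were adjusted over all genes (Benjamini-Hochberg), and a gene was called at an adjusted p under 0.05. The fit was tested on simulated data: for 18 µg against control over 18693 genes, 91 of 100 genes changed by 1 on the log2 scale were called, and 98 of 100 changed by 2, beside 18 false calls. The simulated noise was normal and independent, without slides, arrays that stand apart or genes that vary together. In the real data 13 genes were higher by more than 1 and 7 lower, and none of these was called. The simulated shares therefore do not give the power in these data.

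Members and gene lists were chosen with earlier results of these data known. Named genes were those called, then the 12 higher and 12 lower with the smallest p among genes whose groups did not overlap and that were well above background on at least 8 of the 10 arrays, then the 2 most different of each list, the 5 with the smallest p in each direction of the other comparisons, and a set named by earlier results. Other members of the lists were named after their values were seen, and some genes are not reported here. Promoters came from RefSeq (GRCm38.p6). Alternatives covered background, normalisation, dim probes, probe choice, slide, scan day and each left-out array.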

Additional observations from a re-analysis of the deposited data

Results flagged for a closer look

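In 13 of 178 groups of 5 arrays tested, 1 array lay far from the other 4 relative to the range of the group. Chance gives about 1 in 20 for a single group of independent values. The groups tested share arrays, and their genes can vary together. Some of the genes were also chosen for lack of overlap on these arrays, so that rate is no yardstick for the count. Control replicate 3 accounted for 6 of them. Its level was 2.26 for Dbp, where the other controls had -0.69 to -0.25, 2.01 for Nr1d2 (0.14 to 0.40), 0.979 for Per2 (-0.12 to 0.14), 3.10 for Hlf (1.37 to 1.82), -1.70 for Arntl (0.36 to 0.82) and -0.361 for Egr3 (-0.12 to -0.04), and Egr3 was not well above background.

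Control replicate 2 was the highest for Orm1 (0.942) and Orm2 (1.41) and for the median of the macrophage markers (0.114). Orm1 and Orm2 were each well above background on only 4 of the 10 arrays. Control replicate 1 was the lowest for Hnrnpdl (-1.15, where the others had -0.84 to -0.72) and Ier3 (-1.0). Control replicate 5 was the lowest for Ppp1r16a (0.731, where the others had 0.96 to 1.04). Replicate 3 of the 18 µg group was the lowest for Ciart (-0.297, where the others had 0.07 to 0.16), which was also well above background on only 4 of the 10 arrays.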

How the results depend on the processing

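Against control, the 1 called gene became 0 with the scanner's log ratio, a filter on dim probes, the brightest probe of a gene, log ratios scaled between arrays or only the 10 arrays of the 2 groups, 5 with slide or with scan day held fixed (neither set with Dnpep), and 9 without both arrays called replicate 3. Leaving out 1 array gave 0 to 5. The cause was not tested. Dbp, Arntl and Nr1d2 were among the 5 without control replicate 3, and Bhlhe40 and Dnpep were among the 4 without treated replicate 2. With slide or scan day held fixed, control replicates 1 and 3 were each alone in their block and had no weight. Against 54 µg, the 2 called became 1 with the scanner's log ratio, 4 with the brightest probe, 6 when slide was a random block and 0 when either slide or day of scan was fixed, and leaving out 1 array gave 0 to 13, the highest without replicate 4 of 54 µg. Against 162 µg, the 192 became 72, 487, 334 and 295 with the scanner's log ratio, slide as a random block, slide fixed and scan day fixed, and leaving out 1 array gave 72 to 181. Against NRCWE-025, the 0 became 10 when slide was a random block, 1 when day of scan was fixed, and leaving out 1 array gave 0 to 5. The difference between days stayed at 0. The count of immediate early genes higher at an unadjusted p under 0.05 was 10 to 14 when 1 array was left out. Aquantile normalisation acts on average intensities and leaves log ratios as they are. Scaling between arrays, leaving out both replicates 3, leaving out day 28 replicate 5 and the count of immediate early genes were added after seeing the data. No paired analysis was possible because the sample titles give no replicate number that the groups share, and slide, which holds several arrays, was the block used. Genes dim in both channels have only weak signal over background, which limits what can be seen in them.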
